A study of Mus musculus with 8 samples.

Results

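The genes described here encode the elastic fibre, the small leucine-rich and other proteoglycans, and the matricellular glycoproteins of embryonic mouse skin. They were named as a list of 38 genes, and a gene counted as measured when the platform annotation gave a transcript cluster its symbol alone. That held for 35 of the 38, out of 19938 genes on the array. Fbn1, Efemp2 and Loxl2 had no such cluster and are not analysed here. All 35 also passed the filter on dim clusters, which kept 15174 genes for testing. Loxl4 had more than 1 cluster, of which the one with the highest mean was used.

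RNA came from full-thickness skin of embryos at E17.5, of a mixed C57BL6/SV129 strain, with 4 arrays of control skin (PPARgamma wildtype) and 4 arrays labelled PpargΔ/Δ (PPARgamma null). The labels give no Cre line, deleted exon, litter or sex. The series speaks of individual RNAs without saying whether each came from its own embryo, so p-values measure the spread between these RNAs. Values are RMA log2 values, so a difference of 1 is a 2-fold change, and all differences are labelled null minus control.

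Elastic fibres form when tropoelastin is deposited on a scaffold of fibrillin microfibrils, guided by fibulins and latent TGF-beta binding proteins, and is cross-linked by lysyl oxidases. Small leucine-rich proteoglycans bind collagen and tune the width and spacing of its fibrils. Matricellular proteins are secreted into the matrix and modulate how cells attach to it. In skin these products come mainly from dermal fibroblasts, and PPARgamma is best known there for driving the fat cells beneath the dermis.

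The transcript cluster of Pparg itself showed no loss: it read 8.79, 8.88, 9.04 and 9.06 on the control arrays and 9.14, 9.19, 9.19 and 8.98 on the others. Which part of the gene was deleted is not stated in the labels, so this reading does not check them. The fatty acid transporter Cd36, a PPARgamma target in adipocytes, fell by 0.92 on the log2 scale (limma, adjusted p = 0.00585), and Fabp4, which carries fatty acids inside adipocytes, fell by 1.13 (limma, adjusted p = 0.0189). The array medians lay between 6.93 and 6.96. Labelled-null array 4 stood apart from the other 7 in a principal component analysis, where its score on the leading component was -21.7 against -8.62 to 9.02. Values of the named genes and their classes that it moves by more than 1.5 times are given with and without it. Differences and counts of other matrix genes are given over all arrays only.

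None of the 35 genes passed an adjusted p of 0.05 in limma, where 0.119% of all tested genes did. The proteoglycan Prelp differed most (-0.58, adjusted p = 0.441), followed by the elastin-binding Fbln5 (-0.29, adjusted p = 0.882). At an unadjusted limma p under 0.05 there were 4 genes, namely Prelp, Fbln5, Fmod and Efemp1, all lower on the labelled-null arrays, against 3.61% of all tested genes. Leaving out labelled-null array 4 also gave 4, but Efemp1 had left (limma p without adjustment, 0.0893) and Tnxb, which was higher, had entered (0.0172). Without labelled-null array 3 there were 7, and without control array 2 or labelled-null array 1 there were 3. The shares of all tested genes were 4.45% without labelled-null array 4 and 3.85% without labelled-null array 3. They were 3.26% without control array 2 and 3.97% without labelled-null array 1. In 4 genes, namely Prelp, Fbln5, Fmod and Dpt, every labelled-null array read below every control array, which held for 1.67% of all tested genes. The reverse, every labelled-null array above every control array, was seen in 0 of the 35 and in 0.784% of all tested genes. Without control array 1, or without labelled-null array 3, 7 genes lay wholly below, against 3.34% and 2.87% of all tested genes. With labelled-null array 4 left out, 4 lay wholly below and 1 (Tnxb) wholly above, against 2.95% and 2.04%.

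The promoter sequences of these 4 genes are shown because they are the members whose groups did not overlap. Each is the 250 bases before the transcription start that lies farthest upstream in RefSeq's table for GRCm38.p6, 5′ to 3′ on the gene's strand. A CCAAT box, a GC box, a TATA box and the core element of nuclear receptor sites were searched on both strands, and every match is in capitals. A GC box on the other strand reads CCGCCC.
Prelp, minus strand, chr1:133921402-133921651: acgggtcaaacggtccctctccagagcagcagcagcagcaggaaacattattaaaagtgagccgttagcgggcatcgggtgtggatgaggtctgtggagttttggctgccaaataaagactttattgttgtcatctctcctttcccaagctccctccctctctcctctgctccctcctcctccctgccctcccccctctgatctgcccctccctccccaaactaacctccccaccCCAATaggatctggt
Fmod, plus strand, chr1:134037004-134037253: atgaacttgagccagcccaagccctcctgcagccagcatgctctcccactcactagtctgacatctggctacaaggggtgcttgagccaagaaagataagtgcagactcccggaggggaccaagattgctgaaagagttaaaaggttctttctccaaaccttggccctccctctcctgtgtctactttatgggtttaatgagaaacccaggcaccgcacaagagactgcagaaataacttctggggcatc
Fbln5, minus strand, chr12:101819120-101819369: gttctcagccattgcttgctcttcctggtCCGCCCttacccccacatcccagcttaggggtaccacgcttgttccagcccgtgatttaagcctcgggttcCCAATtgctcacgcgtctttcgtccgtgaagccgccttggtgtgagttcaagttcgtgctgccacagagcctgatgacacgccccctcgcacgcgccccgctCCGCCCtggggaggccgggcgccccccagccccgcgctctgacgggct
Dpt, plus strand, chr1:164796413-164796662: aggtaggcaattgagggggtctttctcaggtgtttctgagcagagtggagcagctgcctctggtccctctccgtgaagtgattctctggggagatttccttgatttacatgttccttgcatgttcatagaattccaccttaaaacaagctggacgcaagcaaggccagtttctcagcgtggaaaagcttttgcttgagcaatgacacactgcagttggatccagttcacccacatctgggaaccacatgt

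Prelp holds 1 such match, Fbln5 holds 3, and Fmod and Dpt hold 0. RefSeq's table held 37 starts of 26 of the named genes. Of these 37 windows, 51.4% hold the GC box GGGCGG, against 32.7% of all 32851 windows of that length. CCAAT is in 21.6% of them, against 33.8% of all, and TATAAA in 16.2%, against 12.4%. Matches on both strands count. The letters AGGTCA, the core element of nuclear receptor sites, are in 5 of the 37 windows and in 4607 of all 32851. They are in windows of Efemp2, Mfap2, Postn and Tnxb and in none of the 4 printed. The direct repeat DR1, a pair of AGGTCA elements with 1 base between them, is the element PPARgamma binds with RXR. It is in 0 of the 37 and in 0.0335% of all windows, and each DR1 also counts as AGGTCA. These matches describe letters in a window and show no binding.

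Of the 35 genes, 25 lay below control and 10 above, with a median difference of -0.08. Over all tested genes 50.3% lay below, and the median was 0.00. With each array centred on its median, which moved all genes by -0.01, the split was 28 below and 7 above, and 57.2% of all tested genes lay below. Without labelled-null array 4 it was 23 below and 12 above, and the median was -0.03, while 53.4% of all tested genes lay below. Differences ran from -0.58 to 0.18, and 23 of the 35 were under 0.1 in size. For 33 genes the 95% confidence interval lay wholly between -0.5 and 0.5, so that a change of more than 1.41-fold in either direction lay outside it. The exceptions were Prelp and Ogn.

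**Figure D1:**
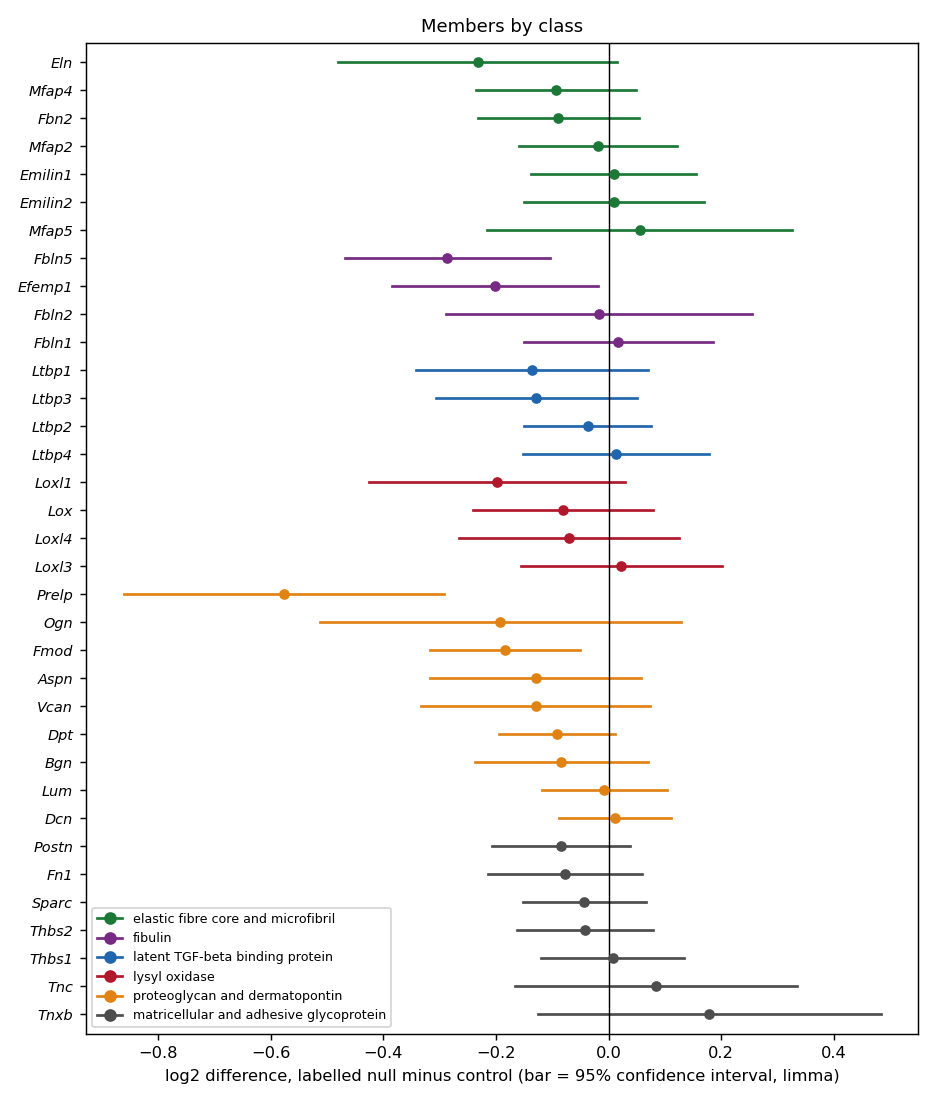
Log2 difference (labelled null minus control, horizontal axis) of each of the 35 genes, grouped and coloured by class, with the 95% confidence interval from limma (n = 4 arrays per group). The intervals of Prelp, Fbln5, Fmod and Efemp1 lie below 0, and Prelp stands farthest out at -0.58.

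Elastin and its microfibrils come first. Eln encodes tropoelastin, the monomer of elastic fibres. It read 9.38, 9.68, 9.60 and 9.65 on control arrays 1 to 4, and 9.40, 9.35, 9.59 and 9.05 on labelled-null arrays 1 to 4. The groups overlapped: labelled-null arrays 1 and 3 lay within the control range, array 2 just below it, and array 4 was lowest. The difference was -0.23 (SE 0.111, 95% confidence interval -0.48 to 0.02, limma adjusted p = 0.9995). Without labelled-null array 4 it was -0.13.

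The fibrillin Fbn2, which forms the microfibrils of embryonic tissue, averaged 10.81 ± 0.06 for control and 10.72 ± 0.11 for labelled null (log2 values, SD, n = 4). Its difference of -0.09 became -0.04 without labelled-null array 4. Mfap4, a microfibril-associated glycoprotein, read 10.11 to 10.28 and 10.02 to 10.21, with a difference of -0.09. Mfap2, which binds fibrillin, read 11.36 to 11.54 and 11.32 to 11.52, with a difference of -0.02, or 0.03 without labelled-null array 4. The groups of all 3 overlapped. Mfap5, a related microfibril protein, differed by 0.06 (0.09 without labelled-null array 4) and varied most within the control group of this class, from 9.56 on array 3 to 10.05 on arrays 1 and 2. Emilin1 read 7.91 to 8.17 and 7.998 to 8.16, and Emilin2 read 9.21 to 9.48 and 9.21 to 9.43. These proteins of the elastin-microfibril interface each differed by 0.01, and by -0.0028 and -0.0023 with each array centred. They differed by 0.03 and 0.06 without labelled-null array 4. In this class 4 of 7 genes lay below control, with a median difference of -0.02. Without labelled-null array 4, 3 of 7 lay below and the median was 0.03, without control array 3 all 7 lay below and it was -0.06, and with each array centred 6 of 7 lay below. The class had no direction that held across these settings.

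Among the fibulins, the secreted glycoproteins that bridge elastin and microfibrils, Fbln5 and Efemp1 read lower on the labelled-null arrays (-0.29 and -0.20, neither past the threshold), while Fbln1 and Fbln2 were near 0. Fbln5 binds both tropoelastin and integrins and is needed for elastic fibre assembly. Its control values were 9.16, 9.34, 9.15 and 9.25, and its labelled-null values 8.86, 9.07, 9.07 and 8.76. All 4 of the latter lay below the lowest control value. The difference was -0.29, or 1.22-fold (SE 0.0815, 95% confidence interval -0.47 to -0.10, limma adjusted p = 0.882).

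Leaving out labelled-null array 4 gave -0.22 for Fbln5, with groups that still did not overlap. Efemp1, also called fibulin-3, read 10.49, 10.70, 10.49 and 10.47 in control skin and 10.29, 10.49, 10.40 and 10.16 on the labelled-null arrays. Labelled-null array 2 lay within the control values and the other 3 below them. The difference was -0.20 (SE 0.082, limma adjusted p = 0.9995), and -0.14 without labelled-null array 4.

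Fbln2, a fibulin of basement membranes and elastic fibres, read 9.75 to 10.01 in control skin, 9.95 to 10.05 on labelled-null arrays 1 to 3 and 9.48 on array 4. Its difference was -0.02 with that array and 0.11 without it. Fbln1 went the other way on the same array: labelled-null array 4 read 10.41, the highest of all 8 arrays, against 10.16 to 10.38 on the others. The difference of Fbln1 was 0.02 over all arrays and -0.02 without that array.

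The latent TGF-beta binding proteins tether TGF-beta to microfibrils, and Ltbp4 also helps fibulin-5 to deliver elastin. Ltbp1 averaged 8.89 ± 0.10 for control and 8.76 ± 0.18 for labelled null (SD, n = 4). Its groups overlapped, with a difference of -0.14 that became -0.05 without labelled-null array 4. Ltbp3 differed by -0.13, with control values of 8.96, 9.12, 9.06 and 9.22 and labelled-null values of 9.05, 8.99, 9.05 and 8.76. Labelled-null arrays 1 to 3 lay within the control range and array 4 below it, and the difference without that array was -0.06. Ltbp2 read 7.95 to 8.04 and 7.87 to 8.03 and differed by -0.04, or -0.01 without labelled-null array 4. Ltbp4 read 9.05 to 9.22 and 9.004 to 9.32 and differed by 0.01, or 0.07 without it. The median of the 4 genes was -0.08, and -0.03 without labelled-null array 4.

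Lysyl oxidases cross-link elastin and collagen. Loxl1, the enzyme most closely tied to elastin, read 9.48, 9.70, 9.51 and 9.75 in control skin and 9.45, 9.36, 9.65 and 9.18 on the labelled-null arrays. Labelled-null array 3 lay within the control range and the other 3 below it. The difference was -0.20 (SE 0.101, 95% confidence interval -0.43 to 0.03, limma adjusted p = 0.9995), and -0.12 without labelled-null array 4.

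Lox, the founding enzyme of the family, differed by -0.08. Its control array 4 stood at 10.98 against 10.76 to 10.79 on the other 3, and without that array the difference was -0.03. It was -0.04 without labelled-null array 4. Loxl4 read 7.66 to 7.94 and 7.51 to 7.86 and differed by -0.07, and by -0.0028 without labelled-null array 4. With the mean of its 2 clusters in place of the brighter one, Loxl4 differed by -0.15. Loxl3 read 7.10 to 7.38 and 7.12 to 7.40 and differed by 0.02, or 0.08 without labelled-null array 4. In this class 3 of 4 lysyl oxidases lay below control, with a median of -0.08, and with a median of -0.02 without labelled-null array 4. With the mean of a gene's clusters the median was -0.11.

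Proteoglycans and dermatopontin held 3 of the 4 genes whose groups did not overlap. Of its 9 genes, 8 lay below control and 1, Dcn, lay 0.01 above, with a median of -0.13. Without labelled-null array 4, 7 of 9 lay below and the median was -0.07. The mean deviation of the class from its average over all 8 arrays was -0.03, 0.09, 0.10 and 0.15 on control arrays 1 to 4. On labelled-null arrays 1 to 4 it was -0.04, -0.07, 0.05 and -0.25, so the groups overlapped through control array 1 and labelled-null array 3.

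Prelp encodes a leucine-rich repeat protein that anchors basement membranes to the collagen beneath them. It read 8.41, 8.73, 8.56 and 8.70 on control arrays 1 to 4, and 8.15, 7.99, 8.28 and 7.66 on labelled-null arrays 1 to 4. Every control value lay above every labelled-null value, with control array 1 lowest among the controls and labelled-null array 4 lowest of all. The difference was -0.58, or 1.49-fold, with an SE of 0.127 and a 95% confidence interval of -0.86 to -0.29. The limma p was 0.00116 before adjustment and 0.441 after it. An exact two-sided permutation test gave p = 0.0286, the smallest that 4 arrays against 4 can give. Groups that do not overlap always give this value, as Fbln5, Fmod and Dpt did, so it adds nothing to the non-overlap. Without labelled-null array 4 the difference was -0.46, the groups stayed apart, and the adjusted p was 0.342. Over all alternatives the adjusted p ran from 0.145 to 0.9999.

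Fmod encodes fibromodulin, which binds type I collagen and acts in fibril growth. In RefSeq's order the protein-coding neighbours of Prelp are Optc and Fmod. The control values of Fmod were 8.03, 8.06, 8.05 and 8.16, and its labelled-null values 7.99, 7.80, 7.95 and 7.82. The groups did not overlap, although labelled-null array 1 lay close to control array 1. The difference was -0.18 (SE 0.0593, 95% confidence interval -0.32 to -0.05, limma adjusted p = 0.9995), and -0.16 without labelled-null array 4.

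Dpt encodes dermatopontin, a small protein that binds decorin and promotes collagen fibril formation. It read 11.77, 11.76, 11.76 and 11.85 in control skin and 11.69, 11.71, 11.72 and 11.65 on the labelled-null arrays. The groups did not overlap, yet the difference was only -0.09 (SE 0.046, 95% confidence interval -0.20 to 0.01, limma adjusted p = 0.9995).

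Decorin (Dcn) and lumican (Lum), which coat collagen fibrils and whose genes neighbour each other, hardly differed. Dcn read 12.59 to 12.65 in control skin and 12.61 to 12.68 on the labelled-null arrays, with a difference of 0.01 and a 95% confidence interval of -0.09 to 0.11. Lum read 11.19 to 11.30 and 11.16 to 11.29, with a difference of -0.01 and an interval of -0.12 to 0.10. Both differed by 0.02 without labelled-null array 4. These are among the narrowest intervals of the 35 genes.

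Ogn (osteoglycin, or mimecan) and Aspn (asporin) are leucine-rich proteoglycans whose genes lie on either side of Omd, which was not tested. Ogn read 9.56, 9.76, 9.996 and 9.99 in control skin and 9.64, 9.62, 9.98 and 9.30 on the labelled-null arrays. Aspn read 10.85, 11.01, 11.14 and 11.14, then 10.95, 10.91, 11.03 and 10.74. Both genes were low on control array 1 and lowest on labelled-null array 4, and their groups overlapped, with differences of -0.19 and -0.13. These were -0.08 and -0.07 without labelled-null array 4.

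Biglycan (Bgn), a close relative of decorin, read 11.92 to 12.08 in control skin and 11.71 to 11.98 on the labelled-null arrays. It differed by -0.08, and by -0.02 without labelled-null array 4. Versican (Vcan), the large proteoglycan that binds hyaluronan, read 11.67, 11.69 and 11.82 on labelled-null arrays 1 to 3 and 11.36 on array 4, against 11.66 to 11.82 in control skin. Its difference of -0.13 became -0.04 without that array.

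**Figure D2:**
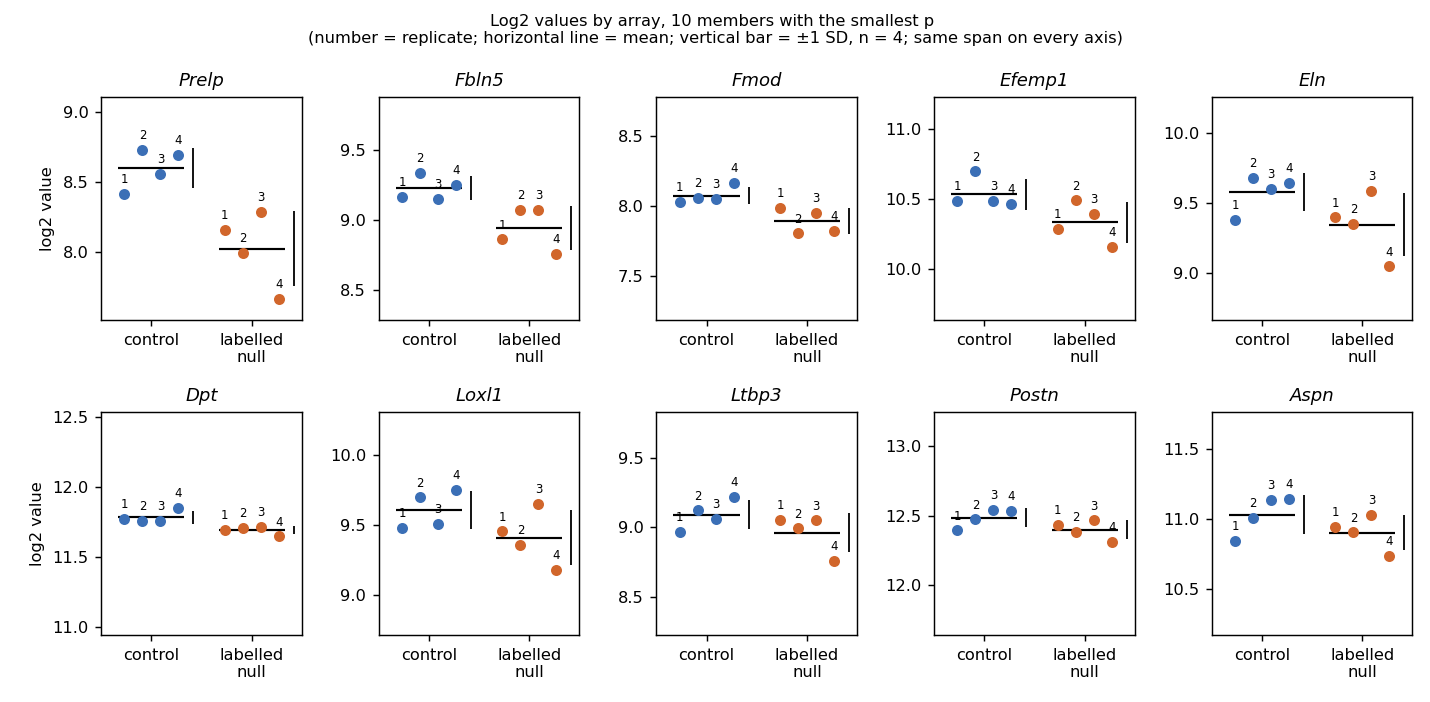
Log2 values (vertical axes, all of the same span) of the 10 genes with the smallest limma p on each control array (blue) and labelled-null array (orange), with replicate numbers, the group mean and ±1 SD (n = 4). Groups do not overlap for Prelp, Fbln5, Fmod and Dpt, and labelled-null array 4 is the lowest point of most panels.

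The matricellular and adhesive glycoproteins were split, with 4 of 7 below control and a median of -0.04, which became -0.01 without labelled-null array 4. Tnxb encodes tenascin-X, which links collagen fibrils and elastic fibres. It read 8.9999, 9.24, 9.02 and 9.34 in control skin and 9.35, 9.36, 9.65 and 8.96 on the labelled-null arrays. Labelled-null arrays 1 to 3 lay above every control value and array 4 lay below every one. The difference was 0.18 (SE 0.136, limma adjusted p = 0.9995), the highest of the 35, and 0.30 without labelled-null array 4 (limma adjusted p = 0.9946), where the groups no longer overlapped.

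Tnc encodes tenascin-C, a glycoprotein of growing and healing connective tissue. Its values were 9.56, 9.84, 9.83 and 9.91, then 9.89, 9.83, 10.14 and 9.62. The groups overlapped, and the difference of 0.08 became 0.17 without labelled-null array 4. It became -0.01 without labelled-null array 3.

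Postn encodes periostin, which promotes collagen cross-linking. It read 12.39, 12.47, 12.54 and 12.53 in control skin and 12.44, 12.39, 12.46 and 12.31 on the labelled-null arrays. The groups overlapped through control array 1, with a difference of -0.08, or -0.06 without labelled-null array 4. Fibronectin (Fn1), which binds integrins and collagen, read 12.01 to 12.11 and 11.83 to 12.08. It differed by -0.08, and by -0.03 without labelled-null array 4. Sparc, a collagen-binding protein, read 12.98 to 13.03 and 12.85 to 13.00, and the thrombospondin Thbs2 read 10.80 to 10.95 and 10.79 to 10.94. Each differed by -0.04, with overlapping groups, and without labelled-null array 4 by -0.01 and -0.03. Thbs1, the thrombospondin that activates latent TGF-beta, differed by 0.01, by -0.0041 with each array centred and by 0.04 without labelled-null array 4.

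A single array carried much of the low side. Labelled-null array 4 held the lowest of the 8 values for 27 of the 35 genes, or 77.1%, where it held the lowest value for 20.3% of all tested genes. It also held the highest value of 21.9% of all tested genes, and among the 35 of Fbln1 alone. The median deviation of the 35 genes from their means over all arrays was -0.16 on that array and -0.02 to 0.08 on the other 7. Control array 4 was the highest for 13 genes and control array 2 for 9. Leaving out labelled-null array 4 moved the median difference from -0.08 to -0.03.

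**Figure D3:**
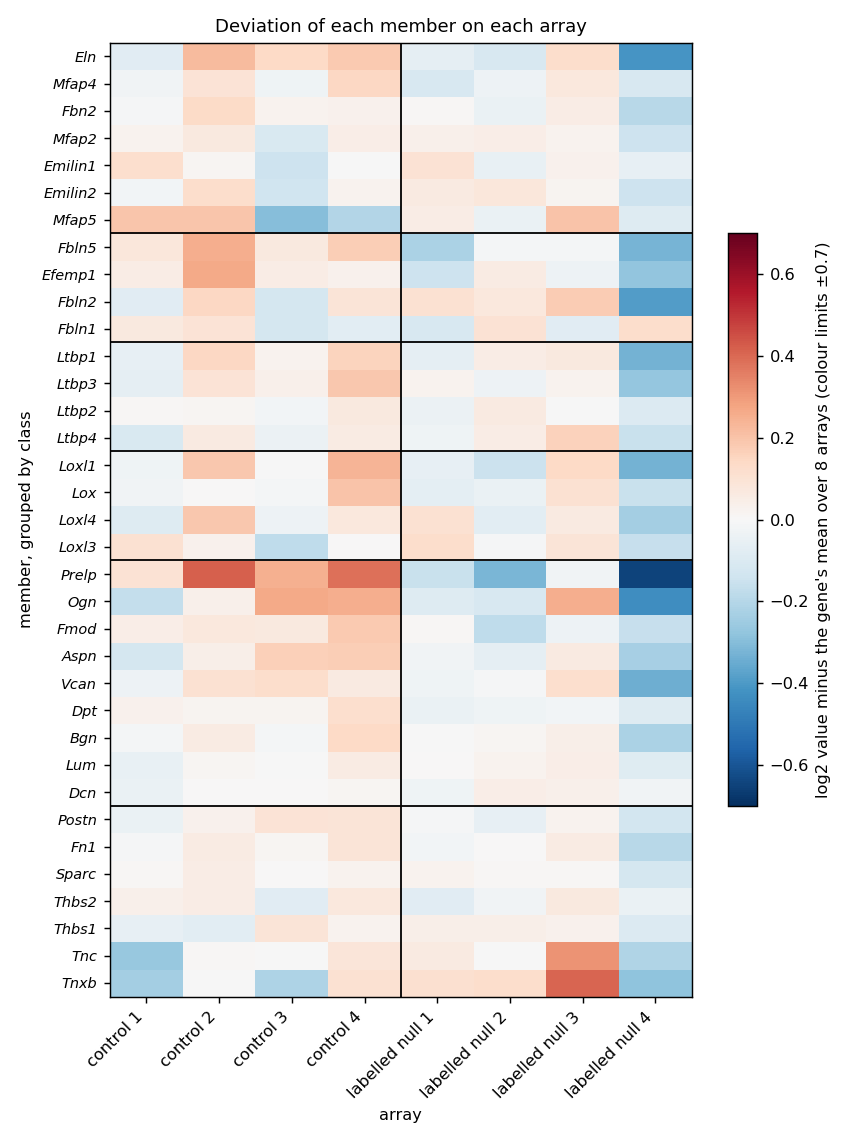
Log2 value of each gene on each array minus the gene's mean over the 8 arrays (colour), with genes in rows by class and arrays in columns. The column of labelled-null array 4 is blue for nearly all genes, with a median of -0.16, while Fbln1 is red there.

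Marker genes listed for the cell types of skin were read beside these values. The mean log2 value of the 10 white adipocyte markers with a cluster was 7.12 to 7.34 on the control arrays and 6.68 to 6.82 on the labelled-null arrays. Of the 8 tested markers, 7 lay below control and 3 passed the threshold. Adipoq and Lep entered that mean but did not pass the filter and were not tested, and Cfd had no cluster. Dermal fibroblast markers had ranges of 10.78 to 10.91 and 10.82 to 10.88, with 5 of 10 below control, 0 past the threshold (1 at an unadjusted p under 0.05) and a median difference of -0.01. Fmod is itself on the list of tendon and fascia markers, of which 2 of 5 tested lay below control and 3 above, with a median of 0.11. The tendon gene Tnmd differed by 0.38 and Thbs4 by 0.22 (limma adjusted p = 0.821 and 0.659), opposite to Fmod. The part of adipocytes in the low values of Prelp, Fbln5, Fmod and Dpt was not tested. In whole skin, fewer cells of a type and less RNA per cell cannot be told apart.

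On labelled-null array 4 the dermal fibroblast markers averaged 10.82 and the keratinocyte markers 12.18, both within the range of the other arrays. Single fibroblast markers did not all follow that mean: 6 of 10 (Pdgfra, Col1a1, Col1a2, Col3a1, Prrx1 and Thy1) had their lowest of 8 values there, and 2 (Crabp1 and Dpp4) had their highest. Of the keratinocyte markers, 0 of 7 had their lowest value there. Smooth muscle and pericyte markers averaged 8.91, against 9.07 to 9.30 on the other 7 arrays, with 7 of 8 markers lowest. Skeletal muscle markers were at 10.76 against 10.87 to 11.23, with 6 of 8 lowest. Macrophage markers were at 8.20 against 8.34 to 8.60, with 4 of 7 lowest. Tendon and fascia markers, at 7.53, lay above the 7.38 to 7.52 of the other arrays. Endothelium (9.38), cartilage and bone (6.17) and Schwann cell (7.67) markers lay within the range of the others. The part of these tissues in the low values of that array was not tested.

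**Figure D4:**
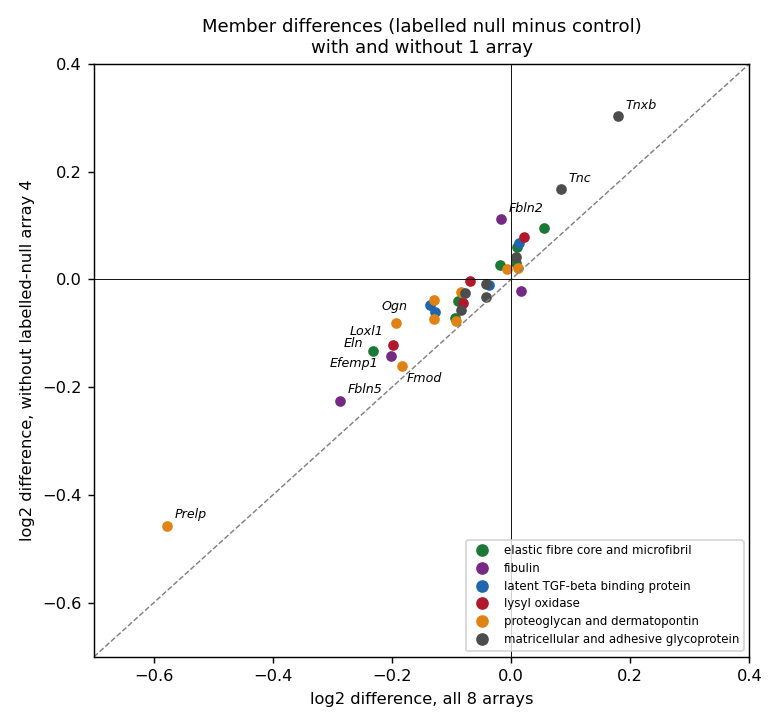
Log2 difference of each gene with all 8 arrays (horizontal axis) and without labelled-null array 4 (vertical axis), coloured by class, with equality as a dashed line. All points but Fbln1 lie above the line, Prelp moves from -0.58 to -0.46, and Tnxb from 0.18 to 0.30.

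Other genes of the matrix were read from the same fit. Of 139 genes listed, 120 were tested, 64 lay below control and 56 above, with a median of -0.01. In limma 0 passed the threshold and 11 had an unadjusted p under 0.05, which is 9.17% against 3.61% of all tested genes. Labelled-null values lay wholly below control in Mmp19 and Mmp23, or 1.67% of the 120 against 1.67% of all tested genes. They lay wholly above in Mmp16, Thbs4 and Itga11, or 2.5% against 0.784%.

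Among matrix proteases and their inhibitors, 17 of 28 lay below control and 11 above. The metalloproteinases Mmp19 and Mmp23 differed by -0.28 and -0.26 and the membrane-bound Mmp16 by 0.20 (limma adjusted p = 0.643, 0.983 and 0.9995). Among other proteoglycan and hyaluronan genes, 21 of 30 lay below and 9 above. Ecm2, next to Aspn in the genome, differed by 0.20, the leucine-rich podocan (Podn) by -0.18 and the hyaluronan-binding Tnfaip6 by -0.18.

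Other matricellular genes lay above control in 17 of 28 cases. The thrombospondin Thbs4 differed by 0.22 (limma adjusted p = 0.659), the basement membrane nidogen Nid1 by -0.20 and Egfl6 by 0.18. Of the other elastic fibre and microfibril genes, 9 of 17 lay below. Hmcn1 (hemicentin-1) differed by 0.23, the growth factor Tgfb1 by -0.12 and the protease Adamts17 by -0.14. The control ranges of Tgfb1 and Adamts17 were 8.85 to 9.11 and 9.58 to 9.80. In both genes labelled-null arrays 1 to 3 lay within the control range, and only array 4 lay below it, at 8.72 and 9.20. Matrix receptors lay above control in 11 of 17 cases, with the integrin subunits Itga11 at 0.16, Itga8 at 0.12 and Itga1 at 0.16.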

How the data were processed

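Total RNA (100 ng per sample) was amplified, and 5.5 μg of cDNA was labelled with biotin, per the labels' protocols. The submitters' processing notes name RMA and Affymetrix Expression Console as the source of the deposited log2 values. Quantile normalization in RMA hides a shift of all genes together. For versions, build and filters nothing was stated (not given in the sources used here), so clusters have no coordinates. Of 35556 clusters, 21789 had 1 gene symbol.

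Tested clusters lay above the 30th percentile of their array on at least 4 of 8 arrays. Groups were compared with limma 3.58.1 (R 4.3.3) (functions lmFit and eBayes), two-sided, and p was adjusted by Benjamini and Hochberg's method over 15174 genes. The fit was tested on simulated data. Genes, classes and marker lists were chosen with earlier results of these data known. Values by array are given for genes whose groups did not overlap and for the 10 genes with the smallest p. Those of Tnxb, Tnc and Ogn were added after their values were seen. In each list of other matrix genes, the 3 with the smallest p are named. Alternatives were other filters, scalings, priors, weights, a replicate block, other rows, other thresholds and leaving out arrays.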

Additional observations from a re-analysis of the deposited data

Results flagged for a closer look

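In 9 of 120 groups of 4 values, 1 array lay far from the other 3. Independent groups would give about 6, or 1 in 20, by chance. These groups were not independent, since the genes share the arrays and class means repeat member genes. The other matrix genes among them were picked for a small p, so the counts are no test. The gap to the nearest array is given as a share of the group's range.

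Labelled-null array 4 was the far array for the microfibril gene Mfap2 (11.32 against 11.50 to 11.52, gap 0.892), biglycan (Bgn, 11.71 against 11.93 to 11.98, gap 0.833), the collagen-binding Sparc (12.85 against 12.98 to 13.00, gap 0.884) and Thbs1 (10.16 against 10.28 to 10.30, gap 0.892). It lay below the others in all 4. Among other matrix genes, the integrin gene Itga1 stood out through labelled-null array 3, at 8.90, above the 8.75 to 8.77 of the other 3 (gap 0.856).

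In the control group, array 4 lay above the others for Lox (10.98 against 10.76 to 10.79, gap 0.877), Dpt (11.85 against 11.76 to 11.77, gap 0.857) and Hmcn1 (10.16 against 9.70 to 9.75, gap 0.885). Control array 2 did so for Efemp1 (10.70 against 10.47 to 10.49, gap 0.910).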

How the results depend on the processing

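In 595 values of the 35 genes under other settings, 0 passed the limma threshold, 553 kept their direction and 42 changed it, in 12 genes. The count of the 35 genes past the threshold was 0 in every setting. For other matrix genes it was 0 in each setting where it was taken. It was not taken with every transcript cluster on its own. Of all tested genes 18 passed, 1 with the replicate block, 1 with every transcript cluster on its own, 3 at an adjusted p under 0.01, and 3 to 15 without 1 array. Deviations of arrays with the same replicate number correlated at r = -0.31, 0.20, 0.05 and -0.03. Arrays of different number were not compared, so these values cannot show whether the arrays were paired. Among the 35 genes there was no call for the block to change. The smallest limma adjusted p was 0.441 without the block and 0.991 with it. Without 1 array the median difference ranged from -0.10 to -0.03 and the number below control from 23 to 30. Direction changed with each array centred for Emilin1 (-0.0028), Emilin2 (-0.0023) and Thbs1 (-0.0041). With array weights it changed for Mfap2 (0.00057), Fbln1 (-0.0021), Fbln2 (0.029) and Lum (0.0056), and with both control array 1 and labelled-null array 4 left out for Mfap2 (0.033) and Fbln2 (0.081). Leaving out 1 array gave ranges across 0 for Mfap2 (-0.057 to 0.027), Mfap5 (-0.034 to 0.130), Emilin1 (-0.038 to 0.049), Emilin2 (-0.036 to 0.059), Fbln1 (-0.022 to 0.056), Fbln2 (-0.079 to 0.111), Ltbp4 (-0.038 to 0.067), Loxl3 (-0.033 to 0.079), Dcn (-0.0011 to 0.023), Lum (-0.027 to 0.019), Tnc (-0.0072 to 0.168) and Thbs1 (-0.015 to 0.041). The cause was not tested. With 4 arrays per group, the 95% interval reached a median of 0.165 to either side over the 35 genes, which limits what small differences can be seen.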
